A study of Mus musculus with 32 samples.

Results

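The mitochondrially encoded RNAs were taken as every gene of the per-gene 3′UTR count table whose symbol starts with mt-, which gave 24 of the 44081 genes in the table. They were 2 ribosomal RNA genes, mt-Rnr1 and mt-Rnr2, and 22 transfer RNA genes. None of the 13 protein-coding genes that the GENCODE annotation places on the mitochondrial genome was among the genes of the table, and these mRNAs were not analysed here. The RNAs came from 16 single hippocampal neurons of C57BL/6 mice, taken at embryonic day 18 and kept for 15 days in culture without stimulation, and the labels name no transgene or treatment. The dendrites of each neuron were cut off with a micropipette and collected apart from its soma, so that the 16 dendrite and 16 soma samples were paired by neuron. Poly-adenylated RNA of each sample went through 3 rounds of aRNA amplification, in which a poly-T primer starts the copying of the RNA, for neurons 1 to 4 and through 2 rounds for the other 12. An ERCC spike-in, a fixed amount of foreign control RNA, was added to both samples of 14 neurons and to neither sample of neurons 1 and 2.

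The mitochondrial genome is a small circle that each mitochondrion carries in several copies and transcribes from both strands as long precursors. Its tRNA genes lie between the rRNA and mRNA genes, and cutting the tRNAs out of the precursor frees the RNAs on either side. The 12S rRNA (mt-Rnr1) and the 16S rRNA (mt-Rnr2) form the core of the mitochondrial ribosome, and each tRNA brings 1 amino acid to it. Mitochondria enter dendrites along microtubules and carry their RNA with them, while nearly all proteins of mitochondria are encoded in the nucleus. Mitochondrial mRNAs and rRNAs carry short A tails, whereas a finished tRNA ends in CCA.

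The RNAs with the most reads are shown by the last 30 bases of their genes, because amplification selects RNA with an A stretch. Positions are on the mitochondrial chromosome of GRCm38 (mm10), all on the plus strand, with the sequences from GENCODE, and capitals mark runs of 3 or more A.
mt-Rnr1, chrM:995-1024: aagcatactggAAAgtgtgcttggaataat
mt-Rnr2, chrM:2646-2675: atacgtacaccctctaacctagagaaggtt
mt-Tt, chrM:15326-15355: ctgAAAtgaagatcttctcttctcaagaca
mt-Tm, chrM:3884-3913: AAAAcgttggtttAAAtccttcccgtacta
mt-Th, chrM:11583-11612: gacaacaggAAAtAAAcctccttattcacc
mt-Tw, chrM:4987-5016: ccctaagAAAAcacacaagtttaacttctg
None of the 6 genes ended in a run of 3 or more A.

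The longest A run inside mt-Rnr2 had 7 bases and lay at bases 395 to 401 of the gene. The 30 bases around it are shown because mt-Rnr2 took most of the mitochondrial reads, and capitals mark the run.
mt-Rnr2, chrM:1477-1506: ttaaacttgctAAAAAAAcaacaaaatcaa
The longest run in mt-Rnr1 had 5 bases. Among the 24 genes mt-Tr held the longest run, of 8 bases, at a dendrite median of 0.524 CPM. Runs of at least 5 A were held by 72.8% of 70528 GENCODE transcripts, counted in their last bases. Runs of at least 7 A were held by 32.8% of the 52044 GENCODE transcripts of at least the length of mt-Rnr2, counted in their last 1582 bases. Whether reads began at such a run was not tested.

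Dendrite libraries had 646521 to 6954420 reads counted on 3′UTRs, and soma libraries 925525 to 21169974. A level was expressed as the reads of a gene scaled to a total of 1000000 of these reads (CPM), in which 3 reads amounted to 0.431 to 4.64 CPM in dendrites and 0.142 to 3.24 CPM in somas. The 5 neuronal markers, summed, lay between 1999 and 7669 CPM in dendrites and between 2988 and 7290 CPM in somas. Summed markers of other cells were lower, with medians in dendrites and somas of 34.6 and 13.3 CPM for 5 astrocyte genes, 30.4 and 22.2 CPM for 5 oligodendrocyte genes, 4.05 and 0.180 CPM for 5 microglial genes and 1.53 and 0.184 CPM for 3 endothelial genes. The highest single library reached 739 CPM, for the oligodendrocyte genes in a dendrite sample, while the defining genes Gfap, Aif1, C1qa, Mog and Cldn5 had a median of 0 in both compartments. Other genes of these lists were above 0, with medians in dendrites and somas of 22.9 and 4.98 CPM for Olig1, 12.5 and 2.38 for Slc1a3, 1.64 and 0 for Aqp4 and 1.23 and 0 for Gja1. In an edgeR test paired by neuron over all genes, Aqp4 had a log2 fold change of dendrites over soma of 3.23 (adjusted p = 0.120), Olig1 of 2.17 (adjusted p = 0.245), Mbp of 2.07 (adjusted p = 0.421) and Slc1a3 of 0.71 (adjusted p = 0.718), so that none was called. DESeq2, with the same pairing, called 1 of the 2 tested astrocyte genes and 1 of the 2 tested oligodendrocyte genes higher in dendrites. It called 4.26% of all genes higher. The part of these other cells in the mitochondrial levels was not tested. Summed over 4 genes, RNAs that stay in the nucleus, such as Malat1 and Meg3, had medians of 519 CPM in dendrites and 1724 CPM in somas. In these samples, more mitochondria and more RNA per mitochondrion cannot be told apart.

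The 2 rRNAs made up nearly all mitochondrial reads, and both were higher in the dendrites of 15 of the 16 neurons. mt-Rnr1 (ENSMUSG00000064337.1), a gene of 955 bases at chrM:70-1024, had 8441 to 80126 CPM in dendrites (median 21965) and 542 to 15059 CPM in somas (median 1760). The somas of neurons 14 and 16 lay above the lowest dendrite value, and the dendrites of neurons 2, 5, 6, 10 and 14 lay below the highest soma value. mt-Rnr2 (ENSMUSG00000064339.1), 1582 bases at chrM:1094-2675, had 13870 to 276175 CPM in dendrites (median 109823) and 2123 to 66827 CPM in somas (median 8307). Its groups overlapped through the somas of neurons 1, 11, 14, 15 and 16 and the dendrites of neurons 2, 5, 6 and 14.

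In the paired edgeR quasi-likelihood test over 10880 genes, with neuron as a block and Benjamini-Hochberg adjustment, the log2 fold change of dendrites over soma was 3.62 (adjusted p = 2.89e-11, SE 0.33) for mt-Rnr1 and 3.41 (adjusted p = 5.75e-12, SE 0.29) for mt-Rnr2. The median of all 10880 genes on the same scale was -1.49, with most of the other genes lower in dendrites. Neuron 14 stood apart from the other 15. Its dendrites had 13247 CPM of mt-Rnr1 against 15059 CPM in its soma, and 29286 against 34411 CPM of mt-Rnr2. Without neuron 14 the log2 fold changes were 3.96 and 3.75, and over all 16 fits that each left out 1 neuron they ranged from 3.49 to 3.96 for mt-Rnr1 and from 3.29 to 3.78 for mt-Rnr2. Neuron 2 had the next smallest difference, with 13870 CPM of mt-Rnr2 in its dendrites against 11718 CPM in its soma.

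**Figure D1:**
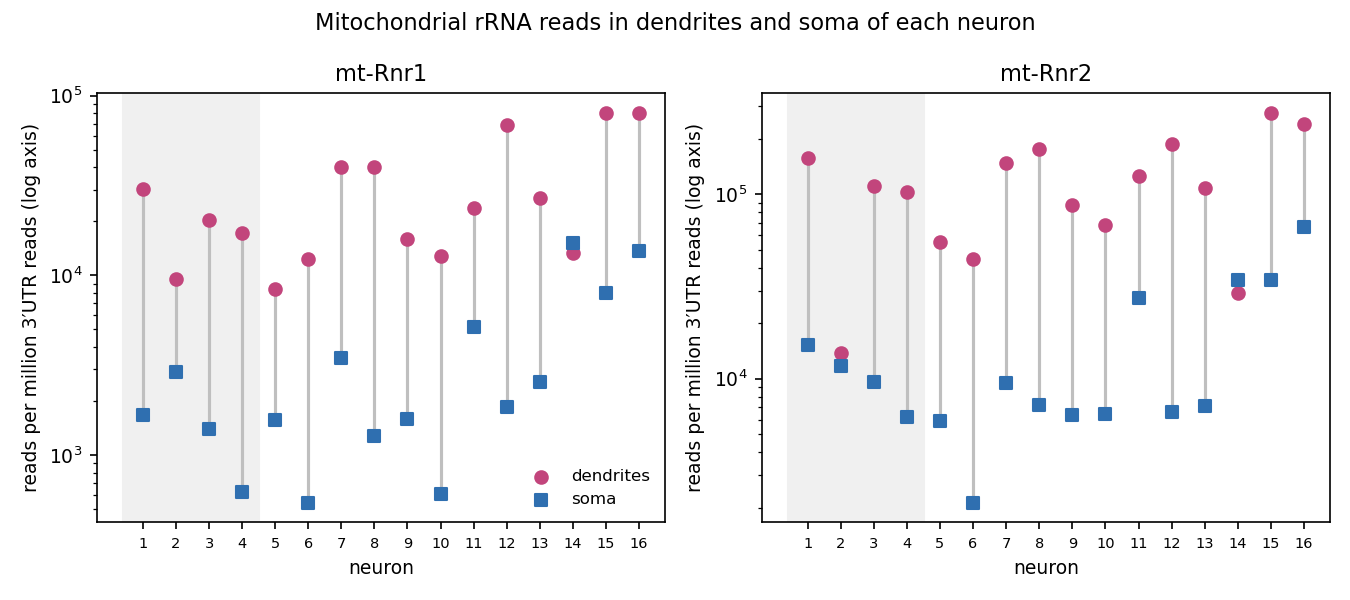
Level of mt-Rnr1 (left) and mt-Rnr2 (right) in CPM on a log axis, for the dendrites (circles) and the soma (squares) of each neuron, joined by a line. The grey band marks neurons 1 to 4, which had 3 rounds of amplification, and the dendrite value is the higher one in every neuron but neuron 14.

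The tRNA genes are short, 59 to 75 bases, and held 0.441% to 2.19% of the mitochondrial reads in dendrites (median 0.804%) and 0.446% to 3.69% in somas (median 0.990%). This share was lower in the dendrites than in the soma of 12 neurons and higher in neurons 5, 9, 13 and 14. A read on a tRNA gene may come from the tRNA or from a longer transcript that runs over it, and the counts cannot tell these apart. Levels were compared between genes per kb of gene length. In dendrites mt-Rnr2 had a median of 69420 CPM per kb and mt-Rnr1 22999.7, and mt-Rnr2 was the higher one in 15 neurons. The 4 tRNA genes with the highest levels came next, mt-Tt (threonine) with a median of 3938 CPM per kb, mt-Tm (methionine) with 3134, mt-Th (histidine) with 2486 and mt-Tw (tryptophan) with 2118. Neighbours in this order changed places between neurons, with mt-Tt above mt-Tm in 9 of 16 dendrite samples, mt-Tm above mt-Th in 9 and mt-Th above mt-Tw in 8. The step below them was steadier, since mt-Tw exceeded mt-Te (glutamate, 942 CPM per kb) in 14 of 16. In somas the order was mt-Tt (791 CPM per kb), mt-Tm (544), mt-Tw (396), mt-Th (234) and mt-Te (71.8). These 4 genes together took 74.2% to 93.8% of the tRNA reads in dendrites and 73.5% to 96.7% in somas.

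**Figure D2:**
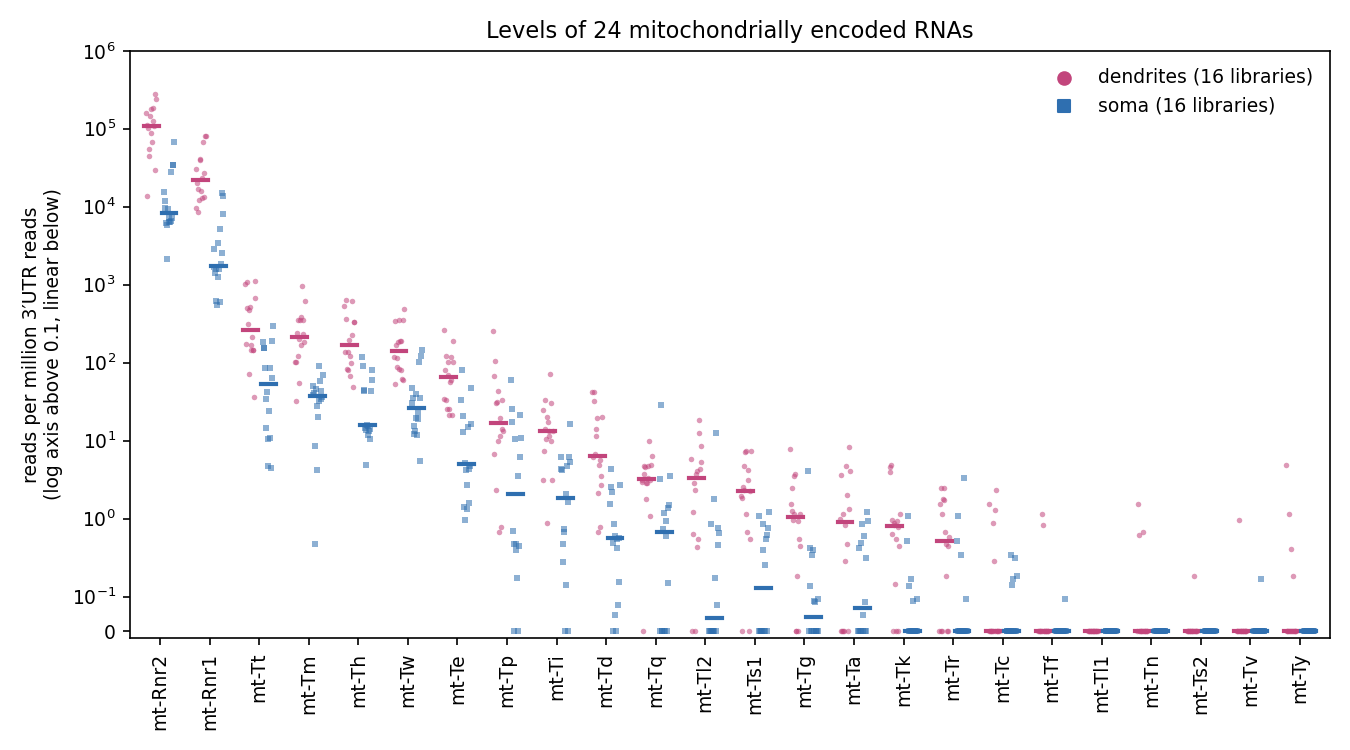
Level in CPM of each of the 24 mitochondrially encoded RNAs in 16 dendrite samples (circles) and 16 soma samples (squares), on an axis that is logarithmic above 0.1 and linear below, with a bar at each median. The medians run from 109823 in dendrites for mt-Rnr2 down to 0 for 7 tRNAs at the right in both compartments.

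Most of the abundant tRNA genes sit directly against an mRNA gene. Of the 22 tRNA genes, 12 lie within 5 bases of an mRNA gene on the same strand, among them mt-Tt after mt-Cytb (cytochrome b), mt-Th after mt-Nd4, mt-Tw after mt-Nd2 and mt-Tm before mt-Nd2 (subunits of complex I). These 12 had a median over genes of 9.90 CPM in dendrites and 1.21 CPM in somas, and 11 of them had enough reads to be tested. The other 10 had a median of 0 in both compartments, and 4 of them could be tested. The groups overlapped, with dendrite medians of 0 to 264 CPM over the 12 and 0 to 16.8 CPM over the 10. mt-Tk, mt-Tg and mt-Tr of the 12 had 0.810, 1.05 and 0.524 CPM, below mt-Tp (16.8), mt-Tq (3.23) and mt-Ts1 (2.28) of the 10. The 12 took 85.8% to 99.6% of the tRNA reads in dendrites and 84.8% to 99.7% in somas. Most of these reads lay on mt-Tt, mt-Tm, mt-Th and mt-Tw. The 8 genes on the minus strand, counted with strand as the kit and the counting option are described, took 3.95% to 22.2% in dendrites and 2.14% to 24.0% in somas.

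mt-Td (aspartate, ENSMUSG00000064353.1), at chrM:6942-7011 just before mt-Co2, a subunit of complex IV, had 0.673 to 42.3 CPM in dendrites (median 6.44) and 0 to 4.32 CPM in somas (median 0.558). Its dendrites exceeded the soma in 16 of 16 neurons, although 6 somas lay above the lowest dendrite sample. Its log2 fold change was 4.03 (adjusted p = 0.0140, SE 0.96), the highest among the mitochondrially encoded RNAs tested by edgeR.

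mt-Th, at chrM:11546-11612, had 48.7 to 632 CPM in dendrites (median 167) and 4.86 to 119 CPM in somas (median 15.7). It was higher in the dendrites of all 16 neurons, with 4 somas above the lowest dendrite sample and a log2 fold change of 3.05 (adjusted p = 0.0127, SE 0.71). mt-Tw, at chrM:4950-5016, had 54.1 to 484 CPM in dendrites (median 142) and 5.48 to 145 CPM in somas (median 26.6). It too was higher in the dendrites of 16 of 16 neurons, with the smallest log2 fold change of the tested RNAs, 2.51 (adjusted p = 0.0288, SE 0.71).

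mt-Tt, at chrM:15289-15355, had 36.7 to 1125 CPM in dendrites (median 264) and 4.51 to 296 CPM in somas (median 53.0). Neuron 14 was the only neuron in which its soma was higher, and its log2 fold change was 2.87 (adjusted p = 0.0129, SE 0.67). mt-Tm, at chrM:3845-3913, had 32.5 to 954 CPM in dendrites (median 216) and 0.470 to 91.5 CPM in somas (median 37.6). Its soma was higher in neuron 2 alone, and its log2 fold change was 3.00 (adjusted p = 0.0193, SE 0.77). mt-Te, on the minus strand at chrM:14071-14139 beside mt-Nd6, had 21.3 to 262 CPM in dendrites (median 65.0) and 0.973 to 81.0 CPM in somas (median 4.95). It was also higher in 15 of 16 neurons, with a log2 fold change of 3.37 (adjusted p = 0.0213, SE 0.90), and 10 dendrite samples lay below the highest soma value.

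Of the 24 genes, 17 entered the test (the 2 rRNAs and 15 tRNAs), which asked for 1 read or more in 16 or more of the 32 libraries. Among these 17, 14 were called higher in dendrites at an adjusted p of at most 0.05 and 0 lower, where 0.827% of the 10880 genes tested were called higher and 5.71% lower. At an unadjusted p of at most 0.05, edgeR had 17 higher and 0 lower. Of all 10880 genes, 3287 had an unadjusted p under 0.05 in this fit, in either direction. DESeq2 called 15 higher and 0 lower at the adjusted threshold, where it called 4.26% of all genes higher and 46.2% lower. The 17 log2 fold changes lay between 2.51 and 4.03 with a median of 3.00. A gene with few reads in somas could enter mainly through its reads in dendrites, as mt-Tk and mt-Tr did. The count over the 17 therefore describes the tested RNAs and not all 24. In 9 of the 17, the dendrites had more CPM than the soma in at least 15 of 16 neurons, as did 0.928% of the genes tested. In 3 of the 17, mt-Td, mt-Th and mt-Tw, this held in 16 of 16 neurons, as in 0.331% of the genes tested.

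The other called tRNAs had lower levels. mt-Tl2 (leucine) had 0 to 18.4 CPM in dendrites (median 3.30) and 0 to 12.6 in somas (median 0.0376), was higher in dendrites in all 14 neurons with reads, and had a log2 fold change of 3.72 (adjusted p = 0.0140, SE 0.89). mt-Ts1 (serine), mt-Tk (lysine) and mt-Tg (glycine) had log2 fold changes of 3.61, 3.41 and 2.90 and adjusted p values of 0.0124, 0.00803 and 0.0157. Each of these was higher in the dendrites of 13 neurons, with dendrite medians of 2.28, 0.810 and 1.05 CPM. mt-Ta (alanine) and mt-Tr (arginine), with medians of 0.905 and 0.524 CPM in dendrites, had log2 fold changes of 2.53 and 2.83 and adjusted p values of 0.0440 and 0.0354. All these dendrite medians lay within the 0.431 to 4.64 CPM that 3 reads amounted to. mt-Tk had reads in 13 dendrite and 6 soma libraries and mt-Tr in 11 and 5, each with a soma median of 0. Both met the filter mainly through dendrites, so that their calls are not independent of it. The other 15 tested RNAs had reads in at least 8 samples of each compartment.

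The 3 tested RNAs that edgeR did not call had similar fold changes and larger errors. mt-Ti (isoleucine) had medians of 13.4 CPM in dendrites and 1.87 in somas, with a log2 fold change of 2.87 (adjusted p = 0.112, SE 1.21). It was lower in the dendrites of neurons 2, 15 and 16. mt-Tp (proline), with medians of 16.8 and 2.10 CPM, had a log2 fold change of 2.87 (adjusted p = 0.0861, SE 1.10) and was lower in the dendrites of neuron 3 alone. mt-Tq (glutamine), with medians of 3.23 and 0.668 CPM, had 2.94 (adjusted p = 0.0661, SE 1.03) and was lower in the dendrites of neurons 2, 3 and 14. The genes of mt-Ti and mt-Tq overlap by their ends on opposite strands. DESeq2 with the same paired design called all 3, and did not call mt-Ta (adjusted p = 0.103) or mt-Tr (adjusted p = 0.145).

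The calls of 3 RNAs depended on single neurons, and 1 other RNA became called when a neuron was left out. mt-Ta lost its call in edgeR when neuron 1, 3, 4, 8, 9, 10, 11, 14 or 16 was left out (adjusted p = 0.0502 to 0.0751). mt-Tr lost it without neuron 3, 6, 8, 9, 10 or 16 (adjusted p = 0.0529 to 0.0709) and had too few reads to be tested in 4 other fits, and mt-Tw without neuron 3, 4, 7 or 8 (adjusted p = 0.0502 to 0.0545). mt-Tq was called without neuron 2 (adjusted p = 0.0466) or neuron 3 (adjusted p = 0.0381), whose soma held 28.8 CPM, the highest value of mt-Tq in any library. The other 13 tested RNAs kept their side of the threshold in each of the 16 fits. Without neuron as a block, where 1.44% of all genes were called higher, 4 of the 14 calls were lost, those of mt-Ta (2.46, adjusted p = 0.0877), mt-Tg (2.50, adjusted p = 0.132), mt-Tl2 (2.29, adjusted p = 0.228) and mt-Tr (1.87, adjusted p = 0.291), and mt-Tq moved from 2.94 to 0.72 (adjusted p = 0.746).

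The remaining 7 tRNA genes did not have enough reads to be tested. mt-Tc (cysteine) had reads in 5 dendrite and 5 soma samples, mt-Ty (tyrosine) in 4 dendrite samples, mt-Tn (asparagine) in 3, mt-Tf (phenylalanine) in 2 dendrite and 1 soma samples, mt-Tv (valine) in 1 of each, mt-Ts2 (serine) in 1 dendrite sample and mt-Tl1 (leucine) in none of the 32. The highest value among them was 4.91 CPM, for mt-Ty in dendrites. For mt-Tl1, 0 reads allow up to 0.431 to 4.64 CPM in a dendrite library and 0.142 to 3.24 CPM in a soma library, as counting error alone.

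The 3 tRNA genes that flank the rRNAs depended on which table was read. In the table that counts each 3′ end apart over its last 500 bases, mt-Tf before mt-Rnr1 had 218 reads over all libraries against 4 in the per-gene table, mt-Tv between the rRNAs 854 against 3, and mt-Tl1 after mt-Rnr2 2202 against 0. mt-Tl1 then had reads in 29 of 32 libraries, with medians of 25.9 reads per 1000000 end reads in dendrites and 2.82 in somas. With edgeR over the 10652 ends tested there, its log2 fold change was 3.10 (adjusted p = 0.0557), that of mt-Tv 3.16 (adjusted p = 0.0531) and that of mt-Tf 3.40 (adjusted p = 0.0311), so that only mt-Tf of the 3 was called, where 0.723% of the ends were called higher. mt-Tw, which lies away from the rRNAs, had the same number of reads in both tables in 31 of 32 libraries. Levels of mt-Tf, mt-Tv and mt-Tl1 are therefore uncertain.

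**Figure D3:**
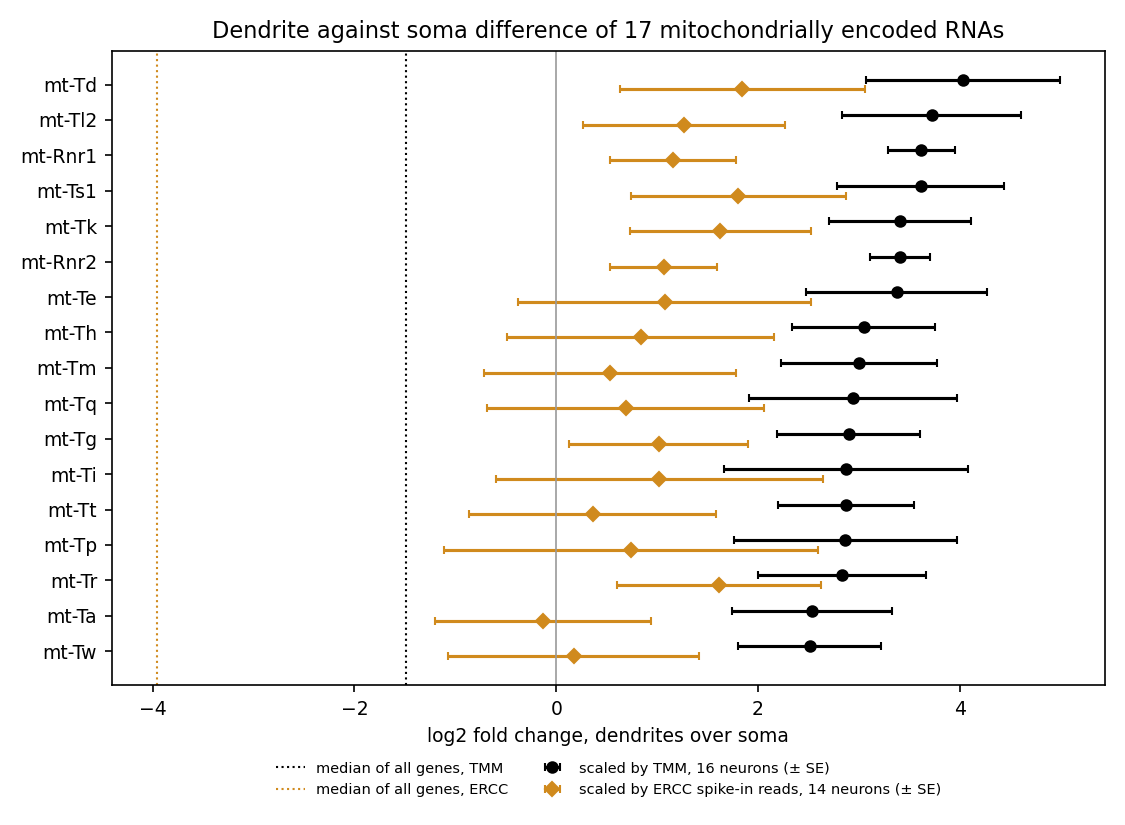
Log2 fold change of dendrites over soma with its standard error for the 17 tested RNAs, from edgeR with TMM scaling over 16 neurons (circles) and with spike-in scaling over 14 neurons (diamonds). The TMM values lie between 2.51 and 4.03 and the spike-in values between -0.13 and 1.84, and the dotted lines mark the median of all genes, -1.49 and -3.96.

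The direction of these differences was relative to all other RNA in a library, and the spike-in gave a second scale. In the 14 neurons with spike-in, dendrites had 1.33 to 39.3 mitochondrial reads per spike-in read (median 9.65) and somas 1.13 to 29.8 (median 3.40). The dendrites were higher in 10 neurons and lower in neurons 10, 14, 15 and 16, with a mean log2 ratio of 1.03 ± 2.02 (SD, n = 14), a 2.05-fold geometric mean. All other genes together went the other way, with 5.06 to 317 reads per spike-in read in dendrites (median 70.3) and 115 to 1649 in somas (median 301). They were lower in the dendrites of 13 of 14 neurons, with neuron 5 as the exception, and their geometric mean was 5.77-fold lower. The share of mitochondrial RNA among all counted reads was accordingly higher in dendrites on average, by 3.17 ± 1.39 on the log2 scale (SD, n = 16), or 3.33 ± 1.31 (SD, n = 14) in the neurons with spike-in.

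With spike-in reads as the library size, edgeR called 0 of the 17 RNAs in either direction (1 higher at an unadjusted p of at most 0.05), where 0.147% of the genes tested were called higher and 61.4% lower. mt-Rnr1 had a log2 fold change of 1.16 (adjusted p = 0.0907, SE 0.63) and mt-Rnr2 of 1.06 (adjusted p = 0.0685, SE 0.53). The highest was mt-Td with 1.84 (adjusted p = 0.164), and mt-Ta changed sign to -0.13 (adjusted p = 0.912). The median of all genes moved from -1.49 to -3.96. Scaling moves all genes of a library together, so that the place of mt-Rnr1 above this median on both scales is not a second result. The spike-in reads themselves ranged from 3083 to 283471 in dendrites and from 4347 to 95838 in somas, and the ratio of dendrite to soma spike-in reads from 0.219 to 4.00 between neurons.

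**Figure D4:**
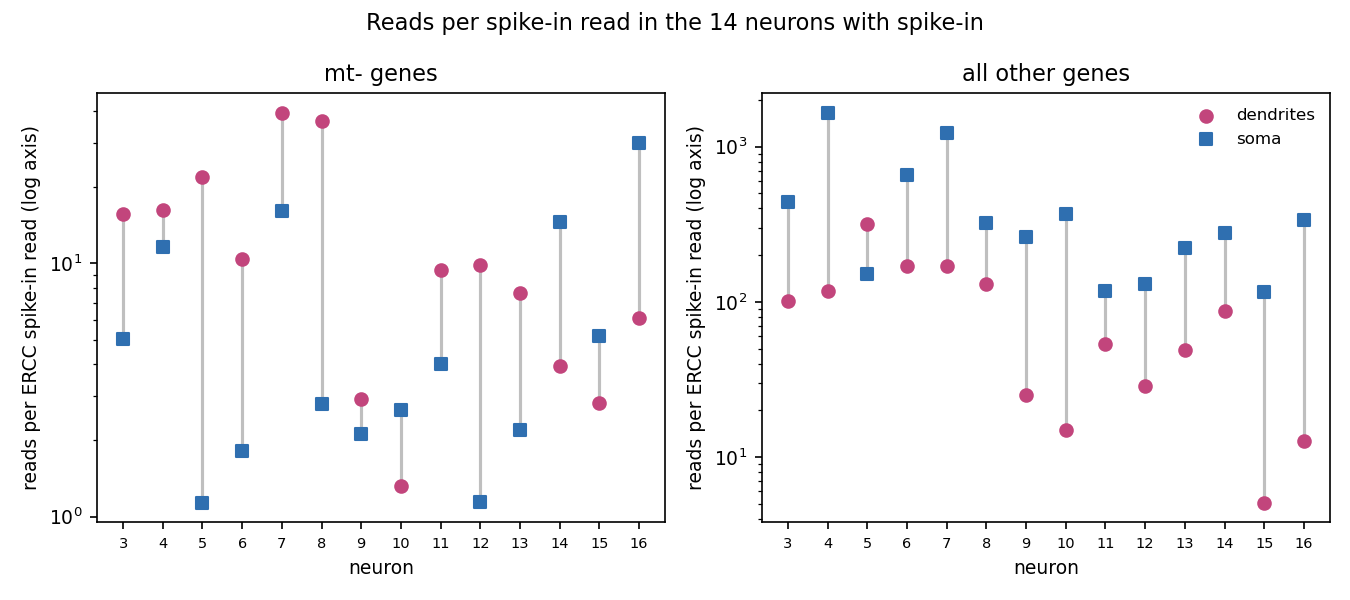
Reads per spike-in read on a log axis for the mitochondrially encoded genes (left) and all other genes (right), for the dendrites (circles) and soma (squares) of each of the 14 neurons with spike-in. On the left the dendrites are higher in 10 neurons, and on the right they are lower in 13.

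The number of amplification rounds is the only technical difference between neurons that the labels give besides the spike-in. In the neurons with 3 rounds, tRNA genes took 1.25% to 2.19% of the mitochondrial reads in dendrites and 2.45% to 3.17% in somas. With 2 rounds, the ranges were 0.441% to 1.49% and 0.446% to 3.69%. The dendrite against soma change of each of the 17 RNAs was tested for a difference between 2 and 3 rounds with an interaction term in edgeR, which called 0 of them and 0.0% of all genes, with 0 of them at an unadjusted p of at most 0.05 and an estimate between -2.00 and 1.01. Within the 12 neurons of 2 rounds, 9 of 17 were called higher and 0 lower, against 0.395% and 3.25% of all genes, and mt-Rnr1 and mt-Rnr2 had log2 fold changes of 3.50 and 3.46. Within the 4 neurons of 3 rounds, the 2 called higher were these rRNAs, with 4.20 and 3.48, against 0.0368% of all genes higher and 0.0092% lower.

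The balance of the 2 rRNAs within a library does not depend on how libraries are scaled. The log2 ratio of mt-Rnr1 to mt-Rnr2 reads was -1.99 ± 0.59 (SD, n = 16) in dendrites and -2.24 ± 0.66 in somas. The difference within a neuron was 0.25 ± 0.61, from -0.80 to 1.48, and was positive in 11 of 16 neurons (p = 0.123, two-sided, from an exact sign-flip permutation test). In the table of single 3′ ends the difference was 0.44 ± 0.84 and positive in 10 of 16 neurons (exact sign-flip p = 0.0553). In the per-gene table it was 0.83 ± 0.48 (n = 4) with 3 rounds, positive in all 4 neurons, at which the exact test cannot go below p = 0.125. With 2 rounds it was 0.056 ± 0.53 (n = 12, exact sign-flip p = 0.723). The difference between these groups, 0.78, exceeded what relabelling the neurons gave (p = 0.0242, two-sided, exact permutation test over 1820 relabellings, with an adjusted p of 0.0484 over 2 such comparisons). The somas of 3 rounds had the lowest ratio, -2.82 ± 0.58 (n = 4), against -2.04 ± 0.58 (n = 12) in the somas of 2 rounds, while the dendrites had -1.99 in both.

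mt-Rnr2 was counted on 2 separate 3′ ends in the table of single ends, and the division of its reads between them was compared between compartments. The gene was chosen for this after its counts were seen, and the positions of the 2 ends are not given in the sources used here. The study lists mt-Rnr2 among its genes with differently localized 3′ isoforms, from a signed-rank test at a looser p threshold than the one used here. The end listed as the second held 33.3% to 75.5% of the reads on both ends in dendrites (median 63.5%) and 16.9% to 72.1% in somas (median 49.9%). The groups overlapped, but within a neuron the dendrites had the higher share in 15 of 16, with neuron 5 as the exception at 63.8% against 68.7%. The mean difference was 14.8 percentage points ± 13.5 (SD, n = 16 neurons), with p = 0.000305 in the exact signed-rank test. Over the 3638 genes with at least 2 ends that could be tested in the same way, no gene had a smaller p, and the adjusted p was 0.296, so that the difference did not pass the threshold. No gene of the 3638 passed it (0.0% called), and 159 had an unadjusted p of at most 0.05. In edgeR over single ends, both were called higher in dendrites, with log2 fold changes of 2.49 for the first listed end and 3.50 for the second.

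The mean difference in the end share of mt-Rnr2, which did not pass the threshold over all genes, had the same sign in both groups of rounds. It was 11.9 points ± 11.9 (n = 12, exact signed-rank p = 0.00488) with 2 rounds and 23.5 points ± 16.0 (n = 4) with 3 rounds, where it was positive in 4 of 4 neurons and the exact test cannot go below p = 0.125. The difference between the groups, 11.7 points, did not exceed what relabelling the neurons gave (p = 0.149, adjusted p = 0.149, from the same exact permutation test). The level of the share also stood at different values by rounds. The somas had 54.3% ± 14.5 (n = 12) with 2 rounds and 24.5% ± 6.27 (n = 4) with 3, and the dendrites 66.2% ± 6.31 and 48.0% ± 10.9, a comparison given without a test.

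**Figure D5:**
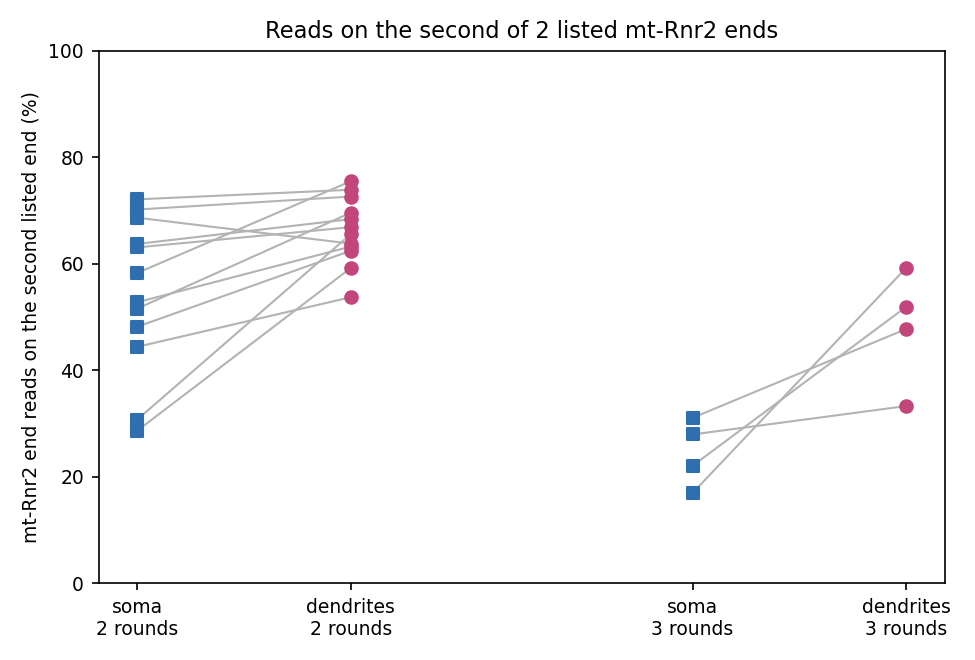
Percent of the reads on both listed mt-Rnr2 ends that fell on the second, in the soma (squares) and the dendrites (circles) of each neuron, joined by a line, for 2 and 3 rounds of amplification. The line rises in every neuron but 1, and the somas of 3 rounds lie between 16.9% and 31.0%.

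Nuclear genes whose proteins maintain mitochondrial DNA or make, process, degrade and translate mitochondrial RNA were read in the same fit. Of 67 such genes listed, 61 were in the table and 53 could be tested by edgeR. None was called higher (0 at an unadjusted p of at most 0.05, and 0 by DESeq2) and 5 were called lower in dendrites, where 5.71% of all genes were called lower. Their median log2 fold change was -2.85 against -1.49 for all genes. In this fit 49 of the 53 values were below 0, where the median gene was also below 0 and the share of all genes below 0 was not counted. Without neuron as a block the medians were -0.70 and -0.22, and 1 factor was higher and 2 lower at an unadjusted p under 0.05. Among those called lower, Mrm1, which methylates the 16S rRNA, had -5.97 (adjusted p = 0.0108, SE 1.30), Peo1, the helicase that unwinds mitochondrial DNA, -6.87 (adjusted p = 0.0182, SE 1.75) and Mtpap, the polymerase that adds the A tails, -5.72 (adjusted p = 0.0358, SE 1.70). The other 2 were Pnpt1, an RNA-degrading enzyme (-4.97), and Fastkd5, an RNA-binding protein of mitochondrial RNA processing (-5.68). The count of genes called lower was 36 with DESeq2, against 46.2% of all genes, and 1 without neuron as a block, where 1.44% of all genes were called higher and 0.708% lower. That 1 was Mrm1 (-5.09, adjusted p = 0.00673), while without the block Peo1 had -2.10, Fastkd5 -1.77, Pnpt1 -1.35 and Mtpap -1.01.

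Nuclear-encoded subunits of the respiratory complexes combine with the protein products of mitochondrial mRNAs. In complex IV (cytochrome c oxidase), 7 of the 12 subunit genes tested were called higher in dendrites and 0 lower, against 0.827% and 5.71% of all genes, with a median log2 fold change of 1.52, and DESeq2 called 9 higher and 0 lower. Cox6a1 had 2.14 (adjusted p = 0.00182, SE 0.39), Cox7c 1.86, Cox8a 1.86 and Cox4i1 1.83. In complex I, 3 of 36 were called higher, Ndufb9 (1.87), Ndufa1 (1.64) and Ndufa4 (1.21, a protein since assigned to complex IV). In complex III, Uqcr11 (1.60) and Uqcrq (1.41) were 2 called of 8, and in the ATP synthase, complex V, Atp5j2 (1.63) and Atp5k (1.46) were 2 of 17. Their medians were 0.74, 0.91 and 0.73, and edgeR called none of the subunits of these 3 complexes lower, with 0, 2 and 1 lower at an unadjusted p of at most 0.05. DESeq2 called 9, 4 and 4 of them higher and 1, 2 and 1 lower. Over all genes DESeq2 called 4.26% higher and 46.2% lower, which is the background for complex IV as well. In the edgeR fit with neuron as a block, Cox6a1 had the largest log2 fold change of the tested subunits. It was smaller than the smallest among the tested mitochondrially encoded RNAs, 2.51. Without the block this did not hold, with 0.72 for mt-Tq and a median of 1.67 in complex IV.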

How the data were processed

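The files hold read counts of 32 libraries, deposited without normalization. Following the methods of the study, the authors trimmed adapters and poly-A, mapped to mm10 with STAR (2.4.0 in the submitters' processing notes) and counted uniquely mapped reads by strand with VERSE, on all 3′UTR regions of a gene joined, on the last 500 bases of each 3′ end and on exons. The exon files hold 0 mt- genes and gave the spike-in reads. Reads that match a nuclear copy of mitochondrial sequence equally well are lost by unique mapping, which makes every level uncertain to an untested degree. The counts carry no molecular identifiers, so floors cover counting error only. The neurons came from several cultures and days, which are not given per neuron.

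Genes with 1 read or more in 16 or more libraries were tested with edgeR 4.0.16 (TMM, quasi-likelihood, robust, neuron as a block) in R 4.3.3, with DESeq2 1.42.0 as an alternative. The rRNA ratio adds 0.5 reads to both counts. Other values came from Python 3.11.15, NumPy 2.4.6, pandas 2.3.3 and SciPy 1.17.1, with exact tests, two-sided. Annotation and sequences came from GENCODE on GRCm38, in which all 24 symbols matched. On simulated counts for the dendrite against soma test, edgeR over 10519 genes recovered 84 of 194 genes changed by 4 on the log2 scale (43.3%), none in the wrong direction, with 2 false calls. The simulation held no differences between neurons and changed as many genes up as down, without the shift of most genes seen here. It therefore does not measure error rates on the real counts.

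Both samples of a number come from the same neuron. After removal of compartment means, their correlation over genes was 0.0829 ± 0.0763 (SD, n = 16), over 0.1 in 7 neurons, against -0.00508 ± 0.0529 (SD, n = 240) between different neurons. Among library pairs within a compartment, 0 were identical.

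The mitochondrially encoded RNAs and the gene lists were chosen with earlier results of these data known. Every mt- gene was accounted for by name, and the nuclear factors named are the 3 with the smallest p in each direction among those called, while the other 2 called factors and the subunits were named after their values were seen.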

Additional observations from a re-analysis of the deposited data

Results flagged for a closer look

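Among the 4 neurons with 3 rounds of amplification, 36 sets of 4 values (17 RNAs and the mt-Rnr2 end share, in each compartment) were examined for a value far from the other 3, and 5 held one by Dixon's test, all in somas. Chance gives about 1 in 20 sets, but 3 of the 5 cannot be read against that share, because they set 1 or 2 reads in 1 soma against 0 reads in the other 3, at which the gap takes up the whole range. mt-Tq had 28.76 CPM in the soma of neuron 3 against 0 to 3.241 in the other 3. mt-Tg had 4.112 CPM in the soma of neuron 1 against 0 to 0.423. mt-Ta had 0.423 CPM and mt-Tl2 0.846 CPM in the soma of neuron 3, and mt-Ts1 had 1.08 CPM in the soma of neuron 2, each against 0 in the other 3 somas. These were 1, 2 and 1 reads.

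The dendrite minus soma difference of the mt-Rnr1 to mt-Rnr2 log2 ratio was 0.775 larger with 3 rounds than with 2 (exact permutation test over 1820 relabellings, two-sided, p = 0.0242, adjusted p = 0.0484), and the rounds cannot be told apart from what else set neurons 1 to 4 apart.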

How the results depend on the processing

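Of the 17 tested RNAs, 14 were called higher in dendrites. The count was 0 with spike-in scaling, 3 with all genes with a read kept, 7 of the 9 RNAs with at least 10 reads in 16 libraries, 9 with 2 rounds alone and 2 with 3 rounds alone. It was 15 with DESeq2, 14 with DESeq2 size factors, 13 with scaling without mt- genes and 16 of 21 listed ends, and it ranged from 11 to 14 when each neuron was left out. None of these fits called an RNA lower. Without neuron as a block the count was 10, the rRNA ratio differed by 0.25 (permutation p = 0.270) and the mt-Rnr2 end share by 14.8 points (permutation p = 0.00996). The nuclear factors called lower went from 5 to 36 with DESeq2 and to 1 without the block. The log2 ratio of the mitochondrial share was 3.17 over 16 neurons and 3.33 over the 14 neurons with spike-in, an alternative chosen after seeing the data, and it was 1.03 over the same 14 with spike-in reads as the denominator. The mt-Rnr2 end share differed by 23.5 points with 3 rounds alone, where 4 pairs cannot reach the threshold, an alternative that was chosen after seeing the data. Of 161 single-RNA values under settings other than leaving out a neuron, 109 kept their side of the threshold, 48 lost the call, 3 gained it and 1 reversed, mt-Ta at -0.13 with spike-in scaling. The cause was not tested. Exon counts could not be used. Over all genes the calls higher and lower were 90 and 621, against 463 and 5029 with DESeq2, 16 and 6681 with the spike-in, 15 and 143 without the filter, 88 and 181 with the strict filter, 157 and 77 without the block, 77 and 1805 over ends, 43 and 354 with 2 rounds and 4 and 1 with 3 rounds.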
